A study of Saccharomyces cerevisiae with 36 samples.

Results

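The genes described here encode the proteins of the small subunit of the cytosolic ribosome of the budding yeast Saccharomyces cerevisiae. They are the 56 genes of the RPS family, matched by systematic name, out of 6717 features in the expression table, and all 56 were measured in every library and passed the filter on low values. They form 24 pairs of A and B copies, which hold 48 genes, and 8 single-copy genes, and together they encode 32 proteins. RNA was sequenced in 6 wild isolates, each grown in 3 media with 2 biological replicates, giving 36 libraries. Per the labels, YPS128, UWO.S05.22-7 and Y7568 resist the hydrolysate, NCYC3290 has medium resistance, and K11 and NCYC361 are sensitive. Every strain was grown in rich medium (YPD), in a synthetic hydrolysate lacking the toxins (SynH -HTs) and in the same hydrolysate with the toxins (SynH), a laboratory version of the sugar liquor obtained from plant biomass. Cultures of all groups were taken in log phase near an OD600 of 0.5 after 3 or more generations. The SynH libraries of NCYC361 are titled SynHv and were assigned by their medium label. The comparisons ask how the toxins and the base medium change the transcripts of these genes, whether the strains respond alike, and whether the copies of a pair move together.

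The small subunit binds messenger RNA and houses the decoding site where codons meet transfer RNA. Its protein genes are among the most strongly transcribed in growing yeast, and as background their transcription depends on the factors Rap1, Fhl1, Ifh1 and Sfp1 and on nutrient signals through TOR and Sch9. Most are present as paired copies kept from an ancient duplication of the whole genome, with the same or nearly the same protein made from both, and many carry an intron, which is rare in this yeast. In these data 36 members have an intron in the RefSeq annotation and 20 have none, and the members lie on 14 chromosomes.

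Values are RPKM, reads scaled by gene length and library total, deposited on the log2 scale. The measure is relative: fewer transcripts of a gene and more transcripts of other genes cannot be told apart. Libraries held 2203991 to 32832552 reads in genes, the next highest having 8043386, and the lowest read number of any member in any library was 210. Reads were assigned to copies by the authors. Coding sequences of the 24 pairs are 84.3 to 99.2% identical, and a pair was compared where at least 20% of the 50-base windows of each copy occur nowhere else in the reference genome, which held for all 24. In 9 pairs all windows were unique. RPS6, at 27.3%, is among the pairs with the smallest unique share, and its split between copies is among the least certain. RPS22B shares its position with SNR44, a small nucleolar RNA encoded in its intron.

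Both NCYC361 libraries in YPD stood apart from the other YPD libraries. The 56 genes took 8.87 and 6.13% of the summed RPKM there, against 18.4 to 21.2% in the 10 YPD libraries of the other 5 strains. Responses that use YPD are therefore given with and without NCYC361. In SynH -HTs the median member was higher in replicate 1, at 1908 to 2417 RPKM, than in replicate 2, at 1257 to 1701 RPKM, in all 6 strains, and results that depend on this are marked. Replicates were collected on different days, and p-values measure the spread between these libraries.

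**Figure D1:**
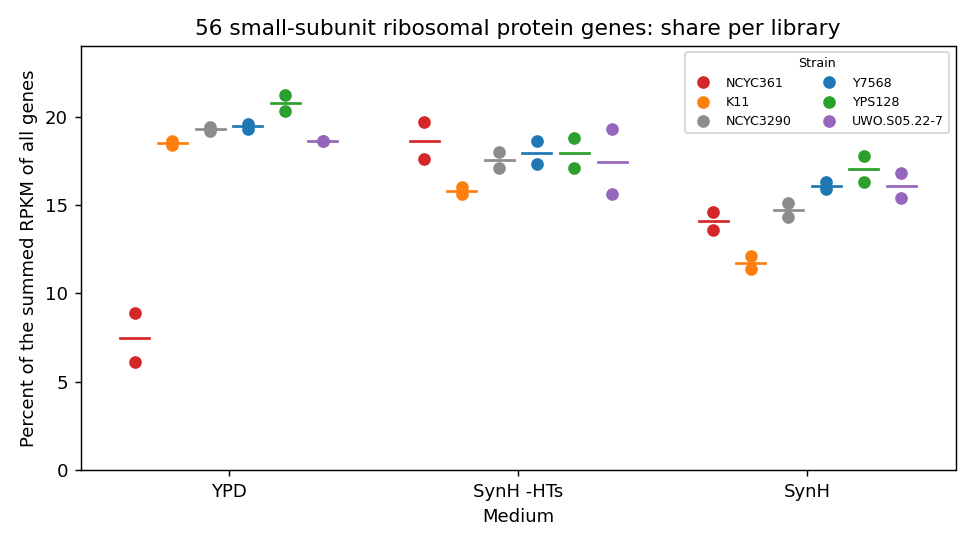
Percent of the summed RPKM taken by the 56 RPS genes in each of the 36 libraries (vertical axis), by medium and strain; each point is a library. NCYC361 in YPD lies at 8.87 and 6.13%, below all other libraries, and K11 in SynH lies at 12.1 and 11.4%.

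The share of the 56 genes was highest in YPD and lowest in SynH in the strains other than NCYC361. In YPD their 10 libraries had a median of 19.2%. In SynH -HTs the share ran from 15.6 to 19.3% with a median of 17.2%, and in SynH from 11.4 to 17.8% with a median of 15.7%. NCYC361 followed another order, with 17.6 and 19.7% in SynH -HTs and 13.6 and 14.6% in SynH, both above its YPD values. Large-subunit protein genes, 82 in number, were low in the same 2 libraries, at 11.9 and 8.27% against 22.2 to 24.5% in the other strains' YPD libraries. No test was made on these summed values.

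Among single genes, levels on the RPKM scale covered a 33.3-fold range by their medians over the 36 libraries. RPS2 (YGL123W, chromosome VII), which lies at the entry of the messenger RNA channel, had the highest geometric mean, at 5387 RPKM. RPS12 (YOR369C) followed at 4992 RPKM, RPS31 (YLR167W), made as a fusion to ubiquitin, at 4481 RPKM, and RPS15 (YOL040C), needed for export of the subunit from the nucleus, at 4461 RPKM. RPS31 and RPS15 differed by 0.01 on the log2 scale against replicate SDs of 0.30 and 0.16. The other single-copy genes stood at 4130 RPKM for RPS13 (YDR064W), 3233 RPKM for RPS3 (YNL178W) and 2723 RPKM for RPS20 (YHL015W). At the lower end were RPS22B (YLR367W) at 482 RPKM, RPS6A (YPL090C) at 219 RPKM and RPS9A (YPL081W) at 172 RPKM. The step of 1.14 on the log2 scale from RPS22B down to RPS6A exceeded the replicate SDs of both, 0.12 and 0.41, and the step of 0.35 from RPS6A to RPS9A did not exceed that of RPS6A.

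Levels were more even when the copies of a protein were added. Summed per protein, medians ran from 728 RPKM for RPS6 to 5896 RPKM for RPS2, an 8.1-fold range. The SD of the log2 medians was 0.59 over the 32 proteins and 1.08 over the 56 genes. The low total of RPS6, a phosphorylated protein downstream of TOR, is also that of a pair with few distinguishing bases.

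The bases that tell the copies apart decide how well each pair could be resolved. The stretches below, from the RefSeq genome R64, are those with the most differing bases of the pairs whose results are described most, with differing bases in capitals; RPS6 is shown as the pair with little to distinguish it. RPS0A lies at chrVII:921387-921506 (plus strand) and RPS0B at chrXII:242948-243067 (plus), bases 358 to 477 of the coding sequence, with 17 differences. RPS9A lies at chrXVI:405586-405705 (plus) and RPS9B at chrII:605056-605175 (plus), bases 136 to 255, with 14. RPS22A lies at chrX:75183-75302 (minus) and RPS22B at chrXII:856442-856561 (plus), bases 1 to 120, with 15. RPS4A lies at chrX:702549-702668 (minus) and RPS4B at chrVIII:504998-505117 (minus), bases 145 to 264, with 5. RPS6A lies at chrXVI:377861-377980 (minus) and RPS6B at chrII:592282-592401 (minus), bases 22 to 141, with 3.
RPS0A: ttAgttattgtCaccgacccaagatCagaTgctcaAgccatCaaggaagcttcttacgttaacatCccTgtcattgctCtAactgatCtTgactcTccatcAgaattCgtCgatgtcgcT
RPS0B: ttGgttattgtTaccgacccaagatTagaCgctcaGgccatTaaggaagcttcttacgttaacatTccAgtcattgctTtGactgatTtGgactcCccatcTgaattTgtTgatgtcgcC
RPS9A: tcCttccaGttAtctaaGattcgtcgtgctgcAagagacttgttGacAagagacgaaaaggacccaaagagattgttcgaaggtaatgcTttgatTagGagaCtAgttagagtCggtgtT
RPS9B: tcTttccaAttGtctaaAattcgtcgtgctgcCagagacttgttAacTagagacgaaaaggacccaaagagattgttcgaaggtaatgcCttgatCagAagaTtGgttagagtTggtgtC
RPS22A: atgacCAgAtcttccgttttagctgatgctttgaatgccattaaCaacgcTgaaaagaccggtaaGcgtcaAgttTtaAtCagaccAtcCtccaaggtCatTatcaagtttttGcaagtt
RPS22B: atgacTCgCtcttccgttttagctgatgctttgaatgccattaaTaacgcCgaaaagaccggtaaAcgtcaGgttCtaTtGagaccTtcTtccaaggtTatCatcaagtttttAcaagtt
RPS4A: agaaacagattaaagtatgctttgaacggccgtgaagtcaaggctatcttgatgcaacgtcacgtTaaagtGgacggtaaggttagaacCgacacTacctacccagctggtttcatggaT
RPS4B: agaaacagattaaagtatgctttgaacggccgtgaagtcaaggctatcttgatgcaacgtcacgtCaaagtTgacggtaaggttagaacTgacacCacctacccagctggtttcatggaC
RPS6A: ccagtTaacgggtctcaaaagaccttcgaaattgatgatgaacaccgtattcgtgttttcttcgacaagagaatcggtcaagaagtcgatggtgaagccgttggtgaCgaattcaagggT
RPS6B: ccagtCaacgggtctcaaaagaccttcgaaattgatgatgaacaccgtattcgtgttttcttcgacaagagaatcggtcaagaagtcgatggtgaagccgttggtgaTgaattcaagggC

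In the libraries measured, a large part of the family was lower with the toxins, by a small amount. In SynH against SynH -HTs, averaged over 6 strains, 30 of 56 members fell and 0 rose (limma, adjusted p under 0.05), where 10.6% of all 5927 tested features fell and 19.1% rose. At an unadjusted p under 0.05 the count was 34 in either direction. The median log2 change of the members was -0.28, against 0.09 over all features, and 54 members lay below 0. Of the 82 large-subunit genes 43 fell, with a median of -0.26. The fall appeared in 6 of 8 single-copy genes, in 21 of 36 members with an intron and in 9 of 20 without. These calls take each library as a unit. With strains as the unit 1 member fell, where 326 of 5927 features fell. With means over strains per medium and replicate number 0 members fell, where 14 features fell.

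RPS0A (YGR214W), which encodes a protein on the solvent side of the subunit, had the smallest p. Its levels ran from 1320 through a median of 1952 to 2090 RPKM in the 12 SynH -HTs libraries and from 1037 through 1407 to 1772 RPKM in the 12 SynH libraries. The ranges overlapped, with K11 lowest and YPS128 highest in both media. RPS0A fell by 0.38 on the log2 scale (SE 0.05, 1.3-fold lower, adjusted p = 4.27e-06), and below 0 in all 6 strains, between -0.55 and -0.19. RPS16B (YDL083C) ran from 2060 through 3050 to 3354 RPKM without toxins and from 1462 through 2272 to 2904 RPKM with them. K11 was again lowest in both, the ranges overlapped, and the change was -0.39 (SE 0.06, adjusted p = 3.76e-05).

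The largest falls were those of RPS14B, RPS22A and RPS6A. RPS14B (YJL191W), whose own protein product holds its messenger RNA down as known in this yeast, ran from 432 through 706 to 1025 RPKM without toxins and from 288 through 532 to 709 RPKM with them. NCYC3290 was lowest in both media and the ranges overlapped. RPS14B fell by 0.49 (SE 0.09, adjusted p = 0.000289), RPS22A by 0.43 (SE 0.08, adjusted p = 0.000149) and RPS6A by 0.41 (SE 0.15, adjusted p = 0.0439). RPS28B, RPS7A and RPS24B fell by 0.36, 0.39 and 0.38, with adjusted p between 0.000111 and 0.000161.

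Of the single-copy genes, RPS2, RPS3, RPS12, RPS13 and RPS15 were among the 6 that passed, with log2 changes of -0.28, -0.34, -0.20, -0.38 and -0.29. RPS3, which lies with RPS2 at the entry of the messenger RNA channel, and RPS13 had adjusted p of 0.00288 and 0.000926. RPS20, a protein of the subunit's head, at -0.15 (SE 0.15) and RPS31 at -0.14 (SE 0.11) did not pass, with adjusted p of 0.502 and 0.41. At the upper end of the family were RPS30A, RPS30B and RPS26A, at 0.25 (SE 0.21), 0.10 (SE 0.21) and -0.01 (SE 0.17), and none of them passed. RPS20 differed between replicates: in UWO.S05.22-7 it read 3907 and 1586 RPKM without toxins and 1960 and 3190 RPKM with them, with the higher value in replicate 1 in the former and in replicate 2 in the latter.

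The replicate difference in SynH -HTs changes these counts. Without the replicate 2 libraries of that medium 50 members fell and 0 rose (34.8 and 15.7% of all features). Their median was -0.42, against -0.20 over all features. Without the replicate 1 libraries 22 fell and 6 rose (9.18 and 53.4% of all features), with a median of -0.09 against 0.39. RPS26A and RPS26B, copies of a protein at the messenger RNA exit, were then 0.45 and 0.40 higher with toxins. Of the members named above, RPS3, RPS12 and RPS6A then no longer passed, at -0.16, -0.19 and -0.02 (limma, adjusted p of 0.0965, 0.0519 and 0.894). In the 5 strains other than NCYC361, 19 members fell and 0 rose, where 8.84% of all features fell and 16% rose.

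**Figure D2:**
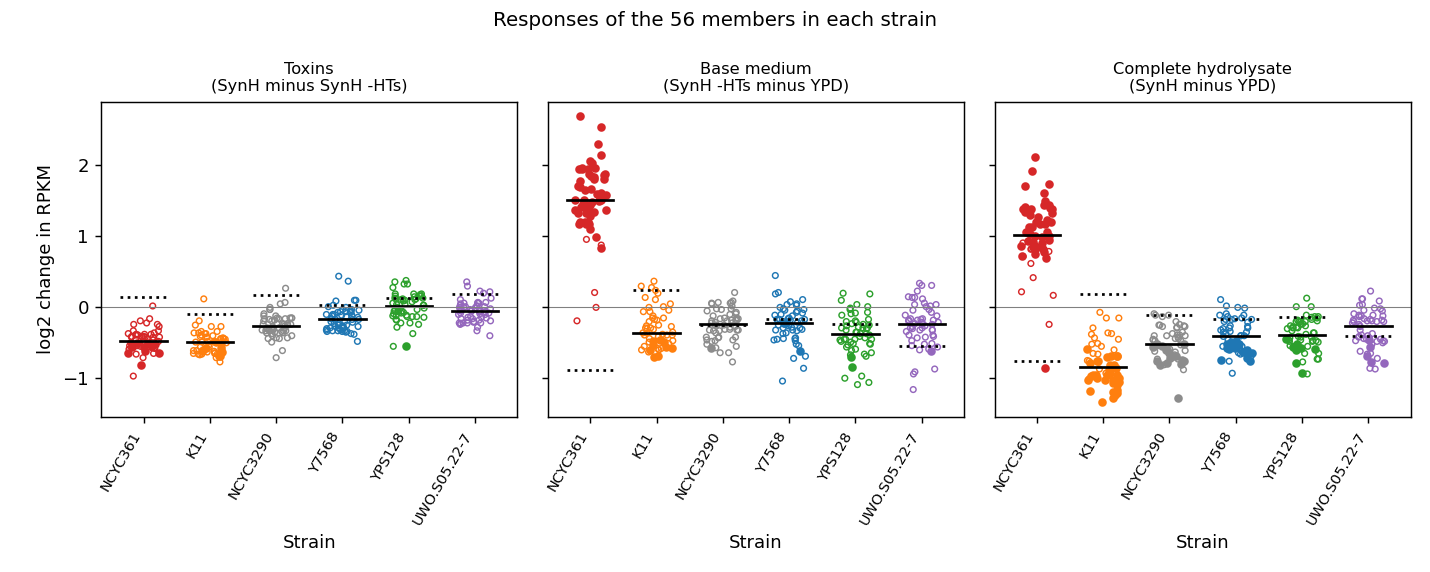
Log2 change of each of the 56 RPS genes (vertical axis) in each strain for the toxin, base medium and complete hydrolysate responses; filled points passed an adjusted p of 0.05, solid lines are medians of the 56 genes and dotted lines medians of all features tested. The members of NCYC361 lie at a median of 1.51 in the base medium response, while those of the other strains lie between -0.38 and -0.23.

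By strain, the toxin response had a median of -0.49 in NCYC361 and -0.50 in K11, the sensitive strains, and of -0.27 in NCYC3290, -0.18 in Y7568, 0.00 in YPS128 and -0.06 in UWO.S05.22-7. In NCYC361 11 members fell (1.57% of all features fell) and in K11 8 fell (1.48%). The 20 calls over all strains became 8 or 9 when either NCYC361 SynH library was left out and 37 or 36 without either of its YPD libraries. In YPS128 RPS22B alone fell, by 0.56 on the log2 scale (limma, adjusted p = 0.0128; 1.38% of all features). In no strain did a member rise, while 8.87, 2.41, 4.54, 4.74, 5.47 and 2.48% of all features rose in NCYC361, K11, NCYC3290, Y7568, YPS128 and UWO.S05.22-7. In NCYC3290, Y7568 and UWO.S05.22-7 the count was 0 in either direction, with 15, 7 and 1 members at an unadjusted p under 0.05 and with 0.86, 1.47 and 0.388% of all features falling. The toxin response of NCYC361 against the other 5 strains passed for 0 members, also 0 at an unadjusted p under 0.05 (1.62% of all features higher, 0.186% lower). A difference of the toxin response among the 6 strains was found by limma's F test for 0 of 56 members, also 0 at an unadjusted p under 0.05, where 2.38% of all features passed. With the strain as the replicate, 3 resistant against 2 sensitive, 0 members passed in the toxin response, as did 0% of all features. There the change in the resistant strains was above that in the sensitive ones for 55 of 56 members. The median difference was 0.43, against 0.10 over all features. An unadjusted p under 0.05 was held by 47 of 56 members and by 482 of 5927 features, and the smallest adjusted p of a member was 0.269 (limma). RPS26B, among the members with that smallest value, differed by 0.68 (SE 0.13). For the level in SynH 0 passed as well (0% of all features), with 24 at an unadjusted p under 0.05, where 811 of 5927 features had one. RPS0B was the lowest at an adjusted p of 0.227 by limma, for a difference of 0.70 (SE 0.16).

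In NCYC361 most of the family was higher in SynH -HTs than in YPD, where the libraries of this strain were low. The source of those low YPD values was not tested. In the other strains the deposited values gave falls that depended on the scaling. Averaged over all 6 strains, SynH -HTs against YPD gave 11 members higher (6.78% of all features) and 9 lower (38.4%), a mean of unlike responses: limma's F test found a difference among the 6 strains for 47 of 56 members (29.6%). Among the 5 strains other than NCYC361 it found 0 of 56, with 2 at an unadjusted p under 0.05 (5.52%). The response of NCYC361 was above that of the other 5 strains for 53 of 56 members (8.62%); RPS9A, RPS22B and RPS30A were the ones that did not pass.

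In NCYC361 51 of 56 members were higher in SynH -HTs than in YPD and 0 were lower (8.64 and 44.6% of all features), with a median of 1.51 against -0.89. RPS9B (YBR189W), whose protein takes part in the accuracy of decoding, had the largest rise. It read 759 and 392 RPKM in the YPD libraries of NCYC361 and 3273 to 4326 RPKM in those of the other strains. In SynH -HTs NCYC361 read 2952 and 4176 RPKM, within the 2285 to 4211 RPKM of the others. RPS9B rose by 2.69 on the log2 scale (SE 0.28, 6.44-fold, adjusted p = 4.28e-08).

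RPS22A (YJL190C) read 1077 and 562 RPKM in YPD and 4379 and 4688 RPKM in SynH -HTs in NCYC361, with no overlap. The other strains read 4425 to 6432 RPKM in YPD, all above NCYC361. RPS22A rose by 2.54 (SE 0.19, 5.83-fold, adjusted p = 3.25e-10). RPS12 had the smallest p: it read 1851 and 1212 RPKM in YPD and 5765 and 5703 RPKM in SynH -HTs, and rose by 1.94 (SE 0.15, adjusted p = 2.92e-10). RPS0B, RPS15, RPS21A and RPS16B rose by 2.29, 2.14, 1.95 and 1.84, with adjusted p of 1.71e-09 or less except for RPS0B at 1.19e-08. All 8 single-copy genes rose, with changes from 1.65 to 2.14.

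The 5 members that did not pass in NCYC361 were RPS9A, RPS22B, RPS30A, RPS30B and RPS7B, all of which have an intron. Of the 36 members with an intron 31 rose, as did all 20 without one. RPS9A read 330 and 202 RPKM in YPD in NCYC361, against 176 to 236 RPKM in the other strains, so this copy was not low there. Its change was -0.20 (SE 0.28, adjusted p = 0.567). RPS22B read 402 and 306 RPKM in YPD in NCYC361, below the 546 to 725 RPKM of the others, and 339 and 358 RPKM in SynH -HTs; its change was -0.01 (SE 0.14, adjusted p = 0.956). Both RPS9A and RPS22B are known in yeast for control that works through their introns, and a part of introns here was not tested. RPS30A was at 0.20 (SE 0.52), RPS30B at 0.95 (SE 0.52) and RPS7B at 0.87 (SE 0.38, adjusted p = 0.0567). RPS14B had the smallest rise among those that passed, 0.83 (SE 0.23, adjusted p = 0.00511), while its partner RPS14A rose by 1.96 (SE 0.23).

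**Figure D3:**
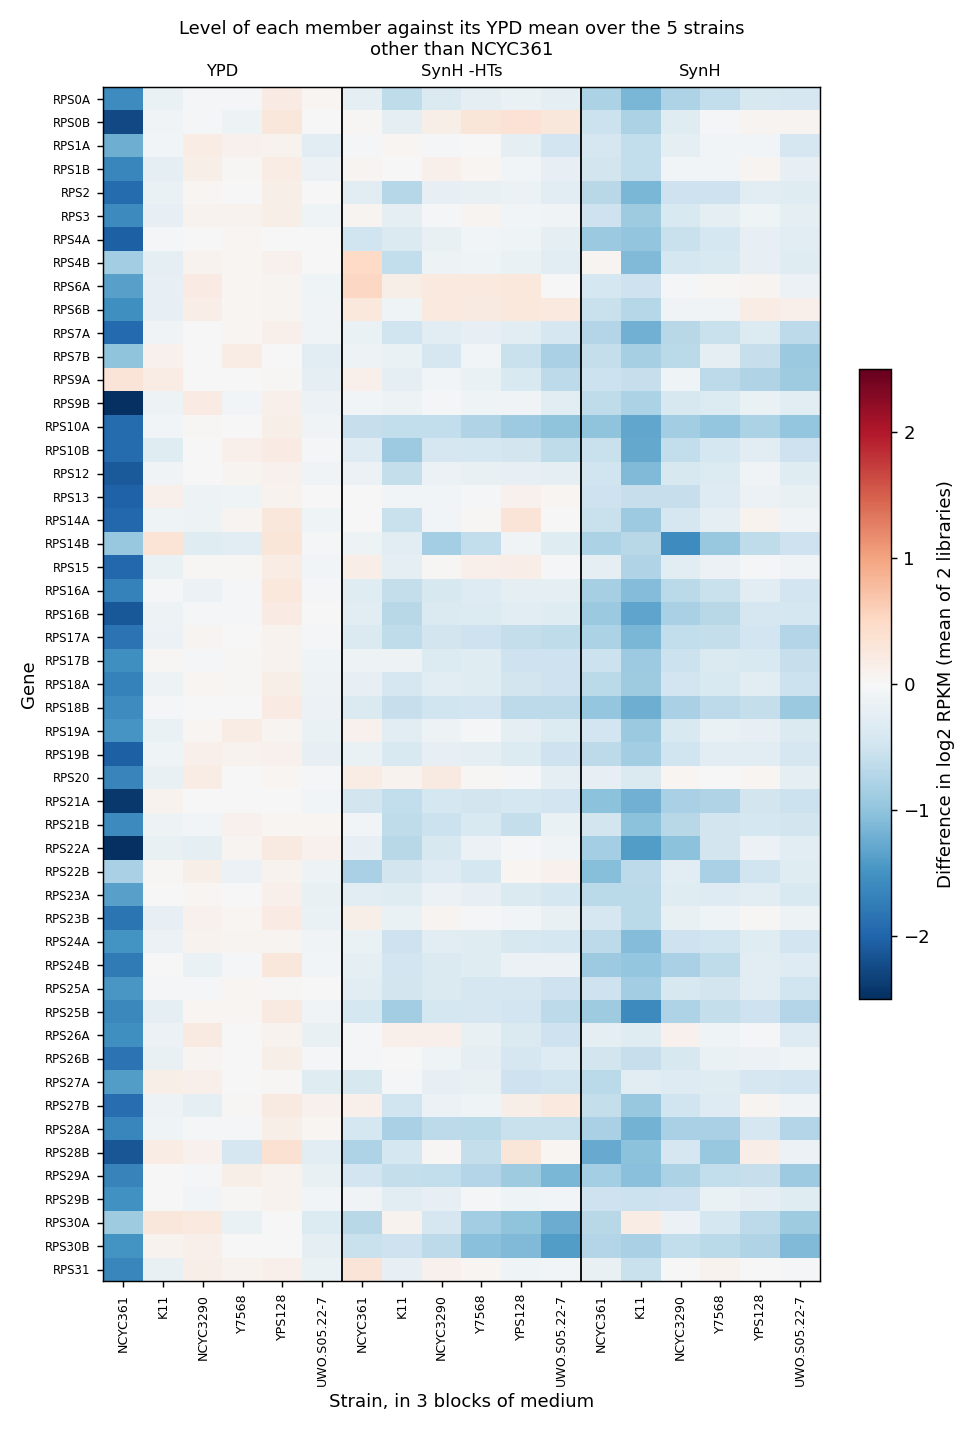
Group mean log2 RPKM of 51 of the 56 RPS genes in each strain and medium, minus that gene's YPD mean over the 5 strains other than NCYC361 (colour, log2 scale). The NCYC361 YPD column is low for nearly all genes, with RPS9A, at 330 and 202 RPKM, among the exceptions.

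In the other 5 strains 29 members fell and 0 rose in the base medium (21.1 and 6.65% of all features), with a median of -0.29 against -0.21. At an unadjusted p under 0.05 there were 35 in either direction. Taken strain by strain, 9 members fell in K11 (4.4% of all features), 1 in NCYC3290 (2.67%), 1 in Y7568 (3.1%), 2 in YPS128 (2.85%) and 1 in UWO.S05.22-7 (9.28%). None rose in these strains by limma's test, where 7.44, 1.75, 1.65, 2.58 and 1.35% of all features rose in the same order, with 21, 8, 7, 19 and 13 members at an unadjusted p under 0.05 in either direction. RPS28A (YOR167C) had the smallest p. It ran from 3844 through 4173 to 4922 RPKM in YPD and from 2029 through 2832 to 3287 RPKM in SynH -HTs, with all 10 YPD libraries above all 10 others. It fell by 0.65 (SE 0.07, 1.57-fold lower, adjusted p = 3.35e-07). RPS30B, RPS29A and RPS10A had the largest falls, 0.94 (SE 0.23), 0.79 (SE 0.18) and 0.78 (SE 0.16), with adjusted p of 0.00369, 0.00225 and 0.000858. RPS29A, a small zinc-binding protein's gene, ran from 1609 to 2118 RPKM in YPD and from 521 to 1567 RPKM in SynH -HTs, without overlap. Its SynH -HTs values split by replicate, at 1202 to 1567 RPKM in replicate 1 and 521 to 1110 RPKM in replicate 2. In the mean of 6 strains the base medium changes of RPS29A, RPS30B and RPS10A were -0.87, -1.20 and -0.80 without SynH -HTs replicate 1 and -0.05, -0.06 and -0.06 without replicate 2, where none passed. RPS28A passed in both cases, at -0.25 and -0.44. RPS0B, RPS6A, RPS6B and RPS15 were at 0.17, 0.18, 0.17 and 0.01 and none passed. When each library was scaled to a common median, which shifted the median of all features to 0.03, 8 members fell and 2 rose in the 5 strains, where 13.2% of all features fell and 15.9% rose, so the members were then near all features. RPS28A was at -0.42 and no longer passed (limma, adjusted p = 0.0852). The median of the members turned from -0.24 to 0.42 in UWO.S05.22-7, with 3 members higher (4.08% of all features), and stood at 0.04 in NCYC3290. In the mean of 6 strains that scaling gave 38 higher and 0 lower (24.6 and 16.3% of all features). In NCYC361 all 56 were then higher, RPS9A and RPS22B included (28.3% of all features). Quantile scaling gave 41 higher there (25.3%) with a median of 0.82, and RPS25A, RPS28A and RPS16A, at -0.01, 0.00 and 0.15, did not pass.

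Across both steps, SynH against YPD, 45 of 56 members fell and 0 rose in the 5 strains other than NCYC361 (27.2 and 17.7% of all features), with a median of -0.50 against -0.14 and all 56 below 0. RPS0A ran from 2001 through 2291 to 2681 RPKM in YPD and from 1037 through 1514 to 1772 RPKM in SynH. The groups did not overlap, and RPS0A fell by 0.67 (SE 0.06, 1.59-fold lower, adjusted p = 1.51e-09). RPS10A, RPS14B, RPS25B and RPS18B fell most, by 0.98, 0.88, 0.84 and 0.84. RPS28A, RPS16B and RPS21A fell by 0.79, 0.73 and 0.75. RPS20, RPS31, RPS6A and RPS6B, at -0.10, -0.11, -0.12 and -0.11, did not pass. Median scaling left 36 falls (25.6% of all features) and quantile scaling 34 (28.5%).

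Within strains, K11 had 35 members lower in SynH than in YPD (9.38% of all features), NCYC3290 17 (5.6%), Y7568 13 (6.61%), YPS128 9 (5.87%) and UWO.S05.22-7 5 (10.2%). Under median scaling the median of the members in UWO.S05.22-7 turned from -0.28 to 0.16, with 1 member higher and 0 lower (8.39 and 6.33%). In these strains no member rose, against 12.6, 6.75, 5.97, 8.13 and 3.83% of all features, and 44, 30, 23, 18 and 15 had an unadjusted p under 0.05 in either direction. In NCYC361 45 were higher (8.67%) and 1, RPS9A, was lower (34.8% of all features). RPS9A fell by 0.86 on the log2 scale (limma, adjusted p = 0.0164), where the median of all features was -0.76. Median scaling gave 53 higher and 0 lower in this strain (22.3 and 11.7%). Averaged over all 6 strains 29 members fell and 0 rose (34.2 and 14.4%), led by RPS0A, RPS22B, RPS28A and RPS14B at -0.43, -0.47, -0.52 and -0.70. Under median scaling that count moved to 9 rises and 6 falls, where 26% of all features rose and 24% fell. The complete response differed among all 6 strains for 41 members (26.1%) and was higher in NCYC361 than in the others for 50 (8.84%). Among the 5 other strains it differed for RPS28B alone (6.77% of all features; F of 9.37, adjusted p = 0.00394), which was at -1.20 in K11, -0.54 in NCYC3290, -0.52 in Y7568, -0.21 in YPS128 and 0.11 in UWO.S05.22-7. The toxin, base medium and complete responses share libraries and are not independent of each other.

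The level averaged over the 3 media differed among strains for 46 of 56 members, where 68.8% of all features did. That average includes the low YPD libraries of NCYC361, and the test was not run without both of them. RPS28B (YLR264W) had the largest F, 80.0 (adjusted p = 3.9e-12). In SynH it read 509 and 534 RPKM in NCYC361, 693 and 548 in K11, 951 and 922 in NCYC3290, 659 and 652 in Y7568, 1484 and 1344 in YPS128 and 1129 and 1144 in UWO.S05.22-7. YPS128 was highest and NCYC361 lowest with no overlap between them. RPS4A, RPS22A, RPS2, RPS21A and RPS12 followed, with F from 38.3 to 30.7. RPS21A read 479 and 307 RPKM in YPD in NCYC361, against 1899 to 2188 RPKM in the others. In SynH -HTs it read 1563 and 1404 RPKM there, within their 1269 to 1652 RPKM. RPS2 of NCYC361 read 2212 and 1582 RPKM in YPD and, in SynH -HTs, 5816 and 6024 RPKM, within the 4081 to 6637 RPKM of the others. RPS4A stayed below the others in SynH -HTs, at 1418 and 1423 against 1481 to 2129 RPKM. Whether reads of strains that differ from the reference align less well to some members was not tested.

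Within pairs, the A copy was the higher on average in 13 and the B copy in 11, and in 13 pairs the same copy was higher in all 36 libraries. The mean difference exceeded 2-fold in 10 pairs and was under 1.5-fold in 11. RPS9 was the most uneven, with a mean log2 ratio of A to B of -4.07, so that the B copy was 16.8-fold higher. RPS22 followed at 2.97 (A 7.83-fold higher), then RPS14 at 2.68 (6.42-fold), RPS27 at -2.06 (B 4.17-fold), RPS7 at 2.05 (A 4.13-fold) and RPS25 at 1.70 (3.25-fold). The even pairs included RPS16 at -0.06 and RPS30 at -0.10.

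**Figure D4:**
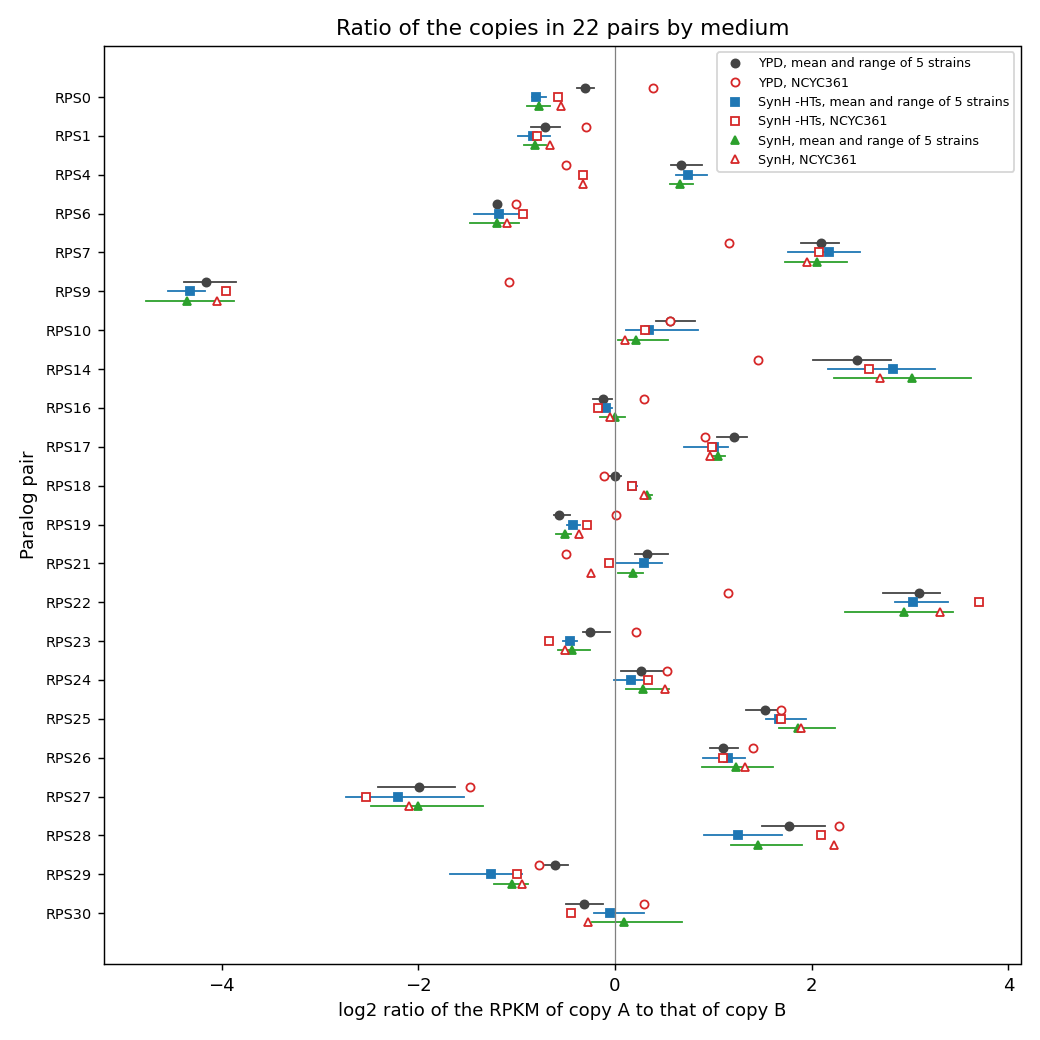
Log2 ratio of the A to the B copy of 22 of the 24 pairs (horizontal axis) in each medium, as the mean and range of the 5 strains other than NCYC361, with NCYC361 as open red symbols. RPS9 lies lowest and RPS22 and RPS14 highest, with the exception of RPS9 and RPS22 of NCYC361 in YPD, where the ratios were -1.08 and 1.15.

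Copy ratios do not depend on the library total, and several moved with the medium. In the base medium 12 of 24 pairs changed, 4 towards A and 8 towards B (exact permutation test within strains, two-sided, adjusted over 72 tests). With NCYC361 left out 12 changed as well, 6 in each direction. In SynH against YPD 13 changed, 14 without NCYC361, and with the toxins 9 changed, 8 towards A and 1 towards B, or 5 without NCYC361. A permutation p of 4.29e-05 is the smallest this test can give over 6 strains, and its adjusted value was 0.000309.

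RPS0 moved towards the B copy in the base medium. Its ratio was 0.39 in NCYC361 in YPD and between -0.39 and -0.21 in the other strains, and in SynH -HTs between -0.84 and -0.58 in all 6. The group means did not overlap between the media. The change was -0.57 in the mean of 6 strains and -0.50 without NCYC361, the former at the smallest permutation p. In RPKM over the 5 strains, the median of RPS0A went from 2291 to 1952 and that of RPS0B from 2727 to 3188. The toxins left this ratio at a change of 0.02 (exact permutation p = 0.715). That value averages unlike replicates: it was 0.19 without SynH -HTs replicate 1 and -0.15 without replicate 2 (adjusted exact permutation p of 0.00658 and 0.0297), while the move towards B in the base medium passed in both cases, at -0.74 and -0.40.

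RPS14 moved the other way, towards A. Its ratio by strain was 1.45 to 2.81 in YPD, 2.17 to 3.25 in SynH -HTs and 2.23 to 3.62 in SynH, with NCYC361 lowest in YPD and NCYC3290 highest in both hydrolysates. The change was 0.50 in the base medium, 0.68 in the complete hydrolysate and 0.18 with the toxins (adjusted exact permutation p of 0.000309, 0.000309 and 0.00957). RPS18 rose towards A by 0.19, 0.34 and 0.15 in the same order, with the toxin step at an adjusted p of 0.00095 (exact permutation). RPS23 changed by -0.32 in the base medium and -0.27 in the complete hydrolysate, and RPS10 by -0.22, -0.37 and, with the toxins, -0.15, each towards B. Without NCYC361 the base medium changes of RPS14, RPS18, RPS23 and RPS10 were 0.37, 0.17, -0.20 and -0.21. Their complete hydrolysate changes were then 0.56, 0.33, -0.18 and -0.35, and all of these passed. NCYC361 itself was at 1.13 for RPS14 and -0.87 for RPS23 in the base medium.

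RPS28 and RPS29 also moved towards B in the base medium, by -0.46 and -0.58 (adjusted exact permutation p of 0.00144 and 0.0355). Without NCYC361 these changes were -0.51 and -0.66, and both passed. Besides RPS18, RPS14 and RPS10, the pairs changed by the toxins included RPS25, RPS28, RPS30, RPS26 and RPS16, by 0.20, 0.19, 0.15, 0.11 and 0.09, all towards A. Without SynH -HTs replicate 1, RPS10, RPS14, RPS25, RPS26, RPS28 and RPS30 no longer passed with the toxins, and without replicate 2 RPS16 and RPS30 did not, while RPS18 passed in both cases. The RPS29 copies, printed whole with differing bases in capitals, differ at 14 of 171 bases (RPS29A at chrXII:898651-898821, plus strand; RPS29B at chrIV:340628-340798, minus strand).
RPS29A: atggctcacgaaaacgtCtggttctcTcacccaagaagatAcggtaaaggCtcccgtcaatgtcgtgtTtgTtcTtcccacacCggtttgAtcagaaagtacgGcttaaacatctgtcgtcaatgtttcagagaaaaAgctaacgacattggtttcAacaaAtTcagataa
RPS29B: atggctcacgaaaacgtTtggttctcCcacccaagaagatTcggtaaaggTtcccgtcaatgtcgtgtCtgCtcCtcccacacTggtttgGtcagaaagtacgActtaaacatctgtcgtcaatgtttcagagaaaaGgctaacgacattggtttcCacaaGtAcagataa
Over the 5 strains RPS29B had medians of 2784 RPKM in YPD and 2644 RPKM in SynH -HTs, while RPS29A went from 1851 to 1156 RPKM. The RPS29 change rests on replicate 2 of SynH -HTs: without those libraries it was -0.01 (adjusted exact permutation p = 0.935), and without replicate 1 it was -1.16 (0.0038). RPS10 was -0.10 in the base medium without replicate 2 and no longer passed (0.0564).

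**Figure D5:**
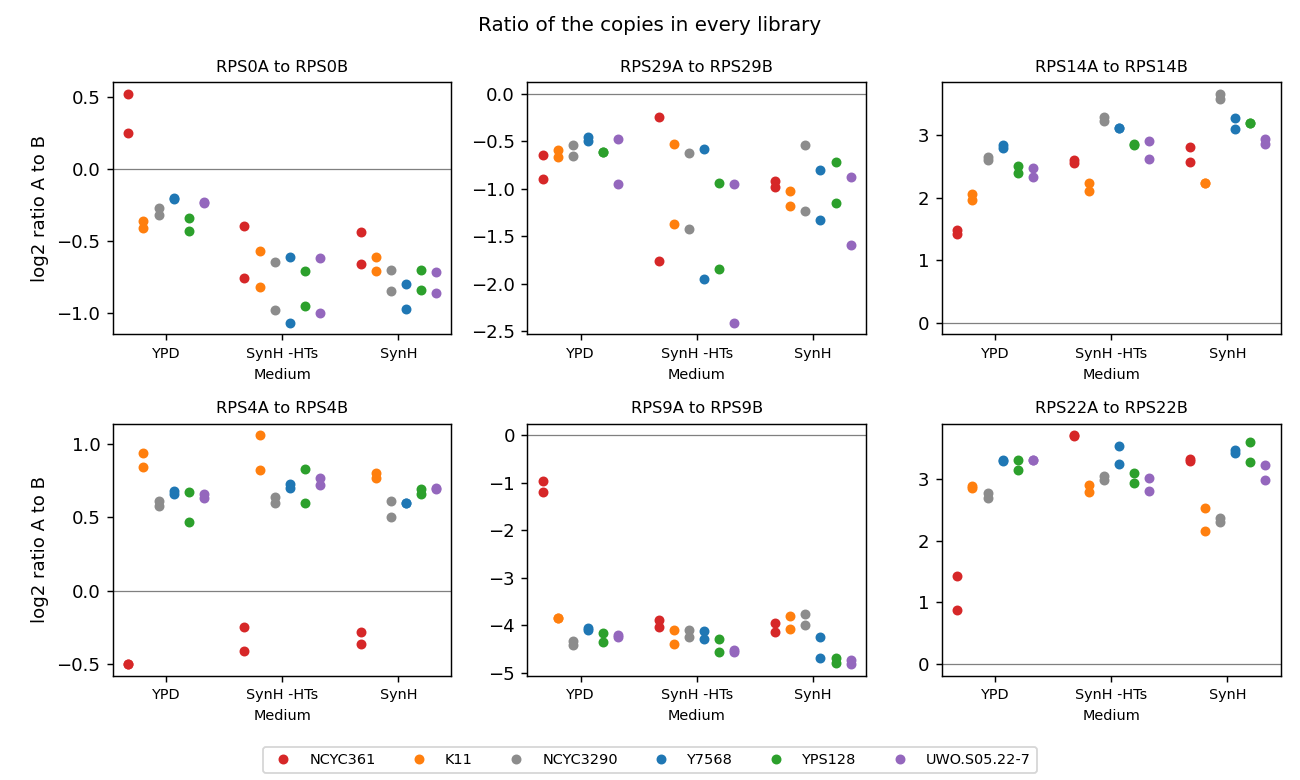
Log2 ratio of the A to the B copy in every library for RPS0, RPS29, RPS14, RPS4, RPS9 and RPS22 (vertical axes), by medium, coloured by strain. RPS4 of NCYC361 lies below 0 in all media, whereas RPS9 and RPS22 of NCYC361 stand apart in YPD.

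NCYC361 in YPD held the lowest or highest ratio of all libraries in 14 of the 24 pairs. There RPS9 was 2.11-fold towards B, against 14.4 to 20.8-fold in the other strains, and RPS22 was 2.22-fold towards A, against 6.64 to 9.9-fold. In both pairs the abundant copy was low there. Of the scarce copies RPS22B was less so, and RPS9A was not low, at 330 and 202 RPKM against 176 to 236 RPKM. In SynH -HTs NCYC361 stood at 15.6-fold for RPS9, below the 18.1 to 23.3-fold of the others, and at 13-fold for RPS22, above their 7.19 to 10.5-fold. With the 6 strains the base medium change of RPS9 was -0.62 (adjusted exact permutation p = 0.0164), and without NCYC361 it was -0.17 (0.0684). RPS22 did not pass in either, at 0.38 and -0.06.

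Among strains the ratio differed in 16 of 24 pairs (permutation test with 100000 resamples within media, adjusted over 24). RPS4 had the clearest split. In SynH -HTs NCYC361 read 1418 and 1423 RPKM for RPS4A and 1878 and 1689 RPKM for RPS4B. The other strains read 1481 to 2129 RPKM for RPS4A and 796 to 1225 RPKM for RPS4B. NCYC361 was thus lower in A and higher in B with no overlap, and its mean log2 ratio over the media was -0.38, against 0.59 to 0.87 in the other strains (adjusted p = 4e-05 by permutation; 1e-05 is the smallest unadjusted value possible). Of the RPS4 windows 52.3% are unique, and the part of sequence differences between NCYC361 and the reference was not tested. RPS1, RPS10, RPS14, RPS26 and RPS28 reached the same smallest p. RPS22 and RPS29 did not differ among strains by this test, with p of 0.11 and 0.797.

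The RPS30 ratio differed among strains (adjusted p = 0.0116 by permutation). K11 had the A copy higher in both SynH libraries, at 2374 and 2771 RPKM against 1570 and 1621 RPKM for B, and B slightly higher in YPD, where its ratio was -0.12. In SynH the mean ratio was 0.68 in K11, 0.15 in NCYC3290 and between -0.27 and -0.07 in the other strains. The replicates of NCYC3290 and UWO.S05.22-7 did not share a leading copy in that medium. There RPS30A read 1488 and 2724 RPKM in NCYC3290 and 820 and 1813 RPKM in UWO.S05.22-7. Its SD between replicates was 0.57 on the log2 scale.

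Other genes of the same pathway were counted from lists of assembly factors and of regulators. Of 17 factors that assemble the small subunit, 10 fell with the toxins and 0 rose (10.6 and 19.1% of all features), with a median of -0.53, and 6 fell in the 5 strains other than NCYC361 (8.84%). In SynH against YPD, averaged over 6 strains, 15 fell (34.2%), with a median of -0.76. The methyltransferase EMG1 fell by 0.60 with the toxins (SE 0.11, adjusted p = 0.000105) and ENP1 by 0.76 (SE 0.18, adjusted p = 0.00164). In the base medium in NCYC361, where 51 of 56 members rose, 0 assembly factors rose and 3 fell, with a median of -0.17, where 8.64% of all features rose and 44.6% fell with a median of -0.89. Of 10 regulators of ribosomal protein genes, 1 rose and 1 fell with the toxins (19.1 and 10.6% of all features), with a median of -0.02. The repressor STB3 rose by 0.66 (SE 0.21, adjusted p = 0.0171 by limma) and the kinase SCH9 fell by 0.44 (SE 0.08, adjusted p = 0.000135). RAP1, FHL1, IFH1, SFP1, TOR1 and TOR2 were among those that did not pass. In the base medium in NCYC361 6 of 10 regulators fell, IFH1 by 2.38 and SFP1 by 0.87 among them, with a median of -1.18, to be read against the same 44.6% and -0.89.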

How the data were processed

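Replicate cultures (2) per strain and medium were sequenced as ribosomal-RNA-depleted, stranded total RNA, extracted with hot phenol. The deposited values are log2 RPKM, made by the authors; from the values, 1 read was added to each count. Trimmomatic 0.30, Bowtie2 and HTSeq 0.6.0 are named per the submitters' processing notes. Which build, annotation and strand setting were used is not given in the sources used here. The table has 6717 named rows and 6 that name no gene, which were left out.

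limma 3.58.1 (R 4.3.3) was fitted to the log2 values of all 36 libraries, with a mean for each of 18 groups and an intensity trend, on 5927 features whose mean reached 1 RPKM. Benjamini-Hochberg adjustment ran over all of them per comparison, with a threshold of 0.05. Errors are standard errors from that fit. A- to B-copy log2 ratios were tested between media by exact two-sided permutation within strains (46656 arrangements) and among strains by 100000 resamples. Scripts were tested on simulated data.

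Reads were recovered only to describe depth: with RefSeq R64 coding lengths, at least 99.62% of values per library were whole within 0.05 reads. Depth was 2203991 to 32832552 reads in genes; reads carry no molecular identifiers. Sequences, introns and unique windows come from RefSeq R64 by Python 3.11.15 and Biopython 1.88.

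The members and lists were chosen with earlier results of these data known. Results of some members and pairs are not reported here, though the counts include them. Otherwise named are the single-copy genes, for each response the 6 smallest adjusted p and the 3 largest changes each way, the 6 smallest p of strain tests, and the 6 most uneven and 6 most medium-dependent pairs; the 5-strain and single-strain responses were added after seeing the data, named by the same rule, and members quoted beside them as the ones that did not pass were chosen after seeing values. Alternatives covered scaling, filters, replicate terms and left-out libraries or strains.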

Additional observations from a re-analysis of the deposited data

Results flagged for a closer look

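Responses that involve YPD differed among strains. The base medium response differed among the 6 strains for 47 of 56 members (29.6% of all features) by limma's F test. The complete hydrolysate response did so for 41 (26.1%). NCYC361 had a higher base medium response than the other 5 strains for 53 members (8.62% of all features) and a higher complete response for 50 (8.84%). The base medium response had an F among strains of 38.7 for RPS21A, 38.4 for RPS12, 35.5 for RPS22A, 34.7 for RPS16B and 30.7 for RPS2. Both NCYC361 libraries in YPD were low in these genes: RPS21A read 479 and 307 RPKM there against 1899 to 2188 RPKM in the other strains. Among the 5 other strains the complete response differed for RPS28B alone, with an F of 9.37. That is 1.79% of the members, below the 6.77% of all features.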

How the results depend on the processing

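The median toxin change of the members stayed below 0 in all alternatives run on it, nearest 0 at -0.09 without SynH -HTs replicate 1, while counts depended on the processing. Leaving out 1 library at a time gave 26 to 38 members lower with the toxins (as reported 30), 8 to 15 higher (11) and 2 to 14 lower (9) in the base medium, 26 to 33 lower in the complete hydrolysate (29), 37 to 54 with a base medium response that differed among strains (47), 42 to 54 with a level that differed (46), 0 with a toxin response that differed, and 8 to 37 member and strain combinations in the toxin response within strains (20). The 9 falls in the base medium became 14 without NCYC361 YPD replicate 2, 3 without NCYC361 YPD replicate 1, 5 without YPD replicate 2 of K11, NCYC3290, Y7568 or UWO.S05.22-7, and 2 to 5 without SynH -HTs replicate 2 of any strain. The 20 combinations became 37 and 36 without either NCYC361 YPD library, 9 and 8 without either NCYC361 SynH library, 12 and 11 without either K11 SynH library, and 9 and 13 without SynH -HTs replicate 2 of NCYC361 and K11.

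Replicate numbers did not pair libraries across media. This was judged from the difference between the replicates of each group, which was correlated between groups. Between media of the same strain these differences correlated between -0.45 and 0.28, over 0.1 in 3 of 18 cases. Across strains within SynH -HTs all 15 correlations of the differences lay between 0.43 and 0.72. With the replicate number as a block, the counts in the order toxin lower, base higher, base lower, complete lower, toxin difference, base difference, level difference and within strains were 32, 11, 9, 29, 0, 48, 47 and 21. With the number as a block within each strain they were 25, 8, 5, 27, 0, 40, 44 and 6. Copy ratios blocked by strain and number changed in 7 pairs with the toxins, 12 in the base medium and 11 in the complete hydrolysate.

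Replicate numbers left out by medium moved counts. Without YPD replicate 1 the base medium gave 6 higher and 1 lower (3.98 and 18.6% of all features). The complete hydrolysate gave 19 lower (19.9%), and 6 ratios changed in the base medium. Without YPD replicate 2 the base medium gave 4 higher and 1 lower (4.61 and 17% of all features). The base medium response then differed among strains for 22 members (673 features) and the level for 29 (2681 features). Without SynH -HTs replicate 1 the base medium gave 24 lower (68.2% of all features). RPS26B, RPS26A, RPS29A and RPS1A were then 0.40, 0.45, 0.36 and 0.26 with the toxins, and RPS26B, RPS26A, RPS1A and RPS19B were -0.40, -0.34, -0.36 and -0.30 in the base medium. Without SynH -HTs replicate 2 the toxins gave 50 lower (34.8% of all features), with 38 combinations within strains. The base medium then gave 18 higher and 3 lower (13.8 and 19.4%). RPS30B was then -0.47 with the toxins, RPS17B 0.33 and RPS30A 0.01 in the base medium, the RPS0 ratio -0.15 with the toxins and the RPS24 ratio 0.24 in the base medium. Without SynH replicate 1 there were 19 lower with the toxins (5.95% of all features), 4 lower in the base medium (33.9%) and 18 lower in the complete hydrolysate (18.6%). There were then 0 combinations within strains and 5 ratios changed by the toxins. Without SynH replicate 2 these were 19 lower with the toxins (7.09%), 4 lower in the base medium (33.8%), 0 combinations and 3 ratios. The cause was not tested.

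With the libraries scaled to a common median, the base medium gave 38 higher and 0 lower (24.6 and 16.3% of all features). The complete hydrolysate gave 6 lower (24%). The base medium changes of RPS24A, RPS17B, RPS18A, RPS23A, RPS21B, RPS27A, RPS22B, RPS17A, RPS18B, RPS7B, RPS28A and RPS9A were then 0.27, 0.30, 0.29, 0.31, 0.24, 0.30, 0.19, 0.15, 0.10, 0.18, 0.03 and 0.09, and the complete changes of RPS4A and RPS22A were 0.01 and 0.01. With ribosomal protein genes left out of that median there were 39 higher, 0 lower and 6 lower, where 1483, 950 and 1426 features were called. The changes, with RPS21A after RPS27A, were 0.28, 0.31, 0.30, 0.32, 0.25, 0.31, 0.30, 0.20, 0.15, 0.10, 0.19, 0.03 and 0.10, and 0.01 and 0.01. Under quantile scaling 30 members differed among strains in the base medium, where 1894 features did. RPS28A was then 0.02 with the toxins, and RPS2 and RPS22A were -0.23 and 0.00 in the base medium.

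Without NCYC361 19 members fell with the toxins (8.84% of all features), and 0 rose and 29 fell in the base medium (6.65 and 21.1%). In the complete hydrolysate 45 fell (27.2%), and 0 differed among strains in the base medium (5.52%). In the base medium RPS4A, RPS9B, RPS14A, RPS13, RPS2, RPS4B, RPS24B, RPS22A, RPS31, RPS3, RPS7A and RPS12 were then -0.19, -0.13, -0.05, -0.01, -0.30, -0.26, -0.28, -0.27, -0.04, -0.08, -0.33 and -0.27, and in the complete hydrolysate RPS9B and RPS15 were -0.40 and -0.26. Resistant strains against K11 alone, the sensitive strain left without NCYC361, gave 1 member for the level in SynH, where 16 features were higher and 198 lower. Ratios changed by the toxins numbered 5 without NCYC361, 5 without K11 and 4 without NCYC3290, and ratios differing among strains 2 in SynH -HTs alone and 7 in SynH alone.

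With strains as the unit 1 member fell with the toxins, 0 rose and 1 fell in the base medium and 4 fell in the complete hydrolysate, where 326, 1390 and 1573 of 5927 features fell in that order; 0 ratios changed with the toxins, 0 in the base medium and 0 in the complete hydrolysate, where 6 strains hardly allow a call. With means over strains per medium and number, the counts were 0 lower with the toxins, 0 higher and 0 lower in the base medium and 0 lower in the complete hydrolysate, where 14, 65, 152 and 226 features were called in that order. Within strains, the toxin calls numbered 5 without an intensity trend and 12 with library weights. Depth did not limit the members' detection, the lowest read number being 210. For single members and ratios, other alternatives left 3306 values on the same side of their threshold, with 518 no longer past it and 209 newly past it. Another 59 reversed in sign and were past the threshold as reported or in the alternative. Values past it in neither are among the 3306, whatever their sign.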
